A study of Mus musculus with 6 samples.

Results

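The genes described here encode the linker histone H1 and the core histones H2A, H2B, H3 and H4, the proteins around which DNA is wrapped in chromatin. They were chosen by gene symbol, in a grouping proposed with the P3FI-90 over DMSO fold changes of these same libraries known, and 106 of the 22105 named genes of the count table belonged to it. Of these, 65 were replication-dependent genes, 10 were variant genes, 30 were genes named for germline histones, and 1, H3f4, was placed in no class. The fold changes and calls below are therefore a description of the members, to be read beside the same values over all genes.

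The RNA came from 4T1, a mouse mammary gland epithelial cancer line, kept for 24 h in 10 µM P3FI-90 or in the solvent DMSO. P3FI-90 is an inhibitor of the histone H3 lysine 9 demethylase KDM3B. Both groups were 3 libraries of the same line, and no label said whether the libraries came from separate cultures, so p-values measure only the spread between these libraries. In bulk RNA of this kind, fewer cells of a type and less RNA per cell cannot be told apart. Each library held between 31327094 and 37395732 counts on named genes, and 12288 genes passed the filter on low counts.

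Replication-dependent histone genes lie in clusters, are transcribed mainly in S phase, and give messages that end in a short stem-loop in place of a poly(A) tail. The stem-loop is bound by SLBP, which directs the processing, translation and decay of these messages. Variant genes such as H1f0, H3f3b and H2az1 lie alone in the genome, carry polyadenylation signals, and supply histones outside replication as well. The libraries were made with an Illumina mRNA-Seq kit, and such kits select RNA that has a poly(A) tail, so the levels of the classes are not a measure of their amounts in the cell. How much this selection took part in the results was not tested.

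The stem-loop was searched in the transcripts as a pattern of 16 bases. It was found in 51 of 21995 genes of the table with a transcript in GENCODE M21 (0.232%), and 48 of the 51 were members of the histone group. The others were Klf7, Syncrip and Trim17, and the exons of Trim17 overlap those of H2ac25. Of the 65 replication-dependent genes 45 held it, and of the 10 variants only H2ax did. Some genes without a match have short annotated transcripts, such as H4c12 with 312 bases and H2bc13 with 381. These may end before a stem-loop, so a missing match does not show that a gene lacks it. All 10 variants had AATAAA or ATTAAA in the last 50 bases of a transcript. The sequences of 3 replication-dependent genes with high counts and of H2ax are shown because they mark which messages can end without a tail. Capitals mark the stem-loop, and the flanks are in lower case.
H1f2: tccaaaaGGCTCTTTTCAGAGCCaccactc
H2ac25: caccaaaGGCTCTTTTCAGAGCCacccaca
H4c9: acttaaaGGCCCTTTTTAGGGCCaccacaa
H2ax: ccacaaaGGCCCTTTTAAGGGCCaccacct
H1f2 and H2ac25 shared the same stem-loop letters. After it the longest annotated transcript went on for 840 bases in H1f2, for 1643 in H2ac25, for 330 in H4c9 and for 822 in H2ax. These genes thus had annotated sequence beyond the end that processing at the stem-loop would give.

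Promoter sequence was taken from RefSeq (GRCm38.p6), 250 bases before to 50 bases after the annotated start, and 93 of the 106 members were matched by symbol. Both strands were searched for CCAAT, for TATAAA and for AAACACA, known as the H1 box. CCAAT was in 47 of 55 replication-dependent and 6 of 9 variant promoters, against 37.4% of 32815 promoters, and TATAAA was in 32 and 1, against 13.6%. AAACACA was in 6 and 1, against 7.19%, and 4 of the 5 replication-dependent H1 genes held it. Divergent H2A and H2B pairs share promoter windows, so these counts are not independent. The windows of the linker genes H1f0 and H1f2 and of H3f3b are shown, because they stand for a variant with a large fall, a replication-dependent gene and a variant with a moderate fall, and capitals mark the motifs.
H1f0, chr15:79027962-79028261, plus strand: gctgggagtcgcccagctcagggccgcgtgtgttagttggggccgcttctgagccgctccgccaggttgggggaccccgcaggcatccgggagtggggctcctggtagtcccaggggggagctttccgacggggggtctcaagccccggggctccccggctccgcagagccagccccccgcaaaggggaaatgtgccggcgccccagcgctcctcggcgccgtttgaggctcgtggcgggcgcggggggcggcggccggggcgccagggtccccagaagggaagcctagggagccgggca
H1f2, chr13:23738557-23738856, plus strand: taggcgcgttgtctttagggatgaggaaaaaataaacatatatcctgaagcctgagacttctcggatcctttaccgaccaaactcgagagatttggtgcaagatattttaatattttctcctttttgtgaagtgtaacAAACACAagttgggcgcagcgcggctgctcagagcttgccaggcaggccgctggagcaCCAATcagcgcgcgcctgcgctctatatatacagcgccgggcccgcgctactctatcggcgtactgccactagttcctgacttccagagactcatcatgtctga
H3f3b, chr11:116024455-116024754, minus strand: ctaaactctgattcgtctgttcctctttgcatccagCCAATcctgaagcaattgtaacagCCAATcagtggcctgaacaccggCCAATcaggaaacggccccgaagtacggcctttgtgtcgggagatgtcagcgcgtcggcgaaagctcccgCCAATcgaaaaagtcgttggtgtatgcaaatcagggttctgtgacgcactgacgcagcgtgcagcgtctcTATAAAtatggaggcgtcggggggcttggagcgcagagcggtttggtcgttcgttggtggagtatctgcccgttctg
The H1f0 window held none of the 3 motifs, and its RefSeq start lies 238 bases before the GENCODE start. The window reaches 50 bases past the RefSeq start, so the sequence just before the GENCODE start was not searched. H1f2 had 1 AAACACA and 1 CCAAT, and H3f3b had 4 copies of CCAAT and 1 TATAAA. A match or its absence in these windows describes the letters only.

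After P3FI-90, histone messages were lower. Of the 26 members that passed the filter, 24 fell and 0 rose by edgeR's quasi-likelihood test at an adjusted p under 0.05, where 39.4% of all tested genes fell, 39.9% rose and 79.3% changed in either direction. Of the 26, 19 fell by more than 1 on the log2 scale, against 10.6% of all tested genes. In 25 of the 26 every P3FI-90 library was below every DMSO library, against 40.2% of all tested genes. Over all 12288 tested genes, 4940 had every P3FI-90 library below and 5033 every P3FI-90 library above the DMSO libraries. Separate groups were thus common, and those of single genes below are to be read beside these counts. The members without a call were H3c10, at a log2 fold change of -1.24, and Macroh2a2, at 0.16. Both had few reads, but H3c3 and H3c8, with similar counts with DMSO, were called. The median log2 fold change was -2.40 over the 17 tested replication-dependent genes, -0.82 over the 9 tested variants and 0.01 over all tested genes. Of the 17 replication-dependent genes, 13 passed the filter through the DMSO libraries alone, so their counts and median are no support for a fall, whereas 8 of the 9 variants passed it in both groups.

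**Figure D1:**
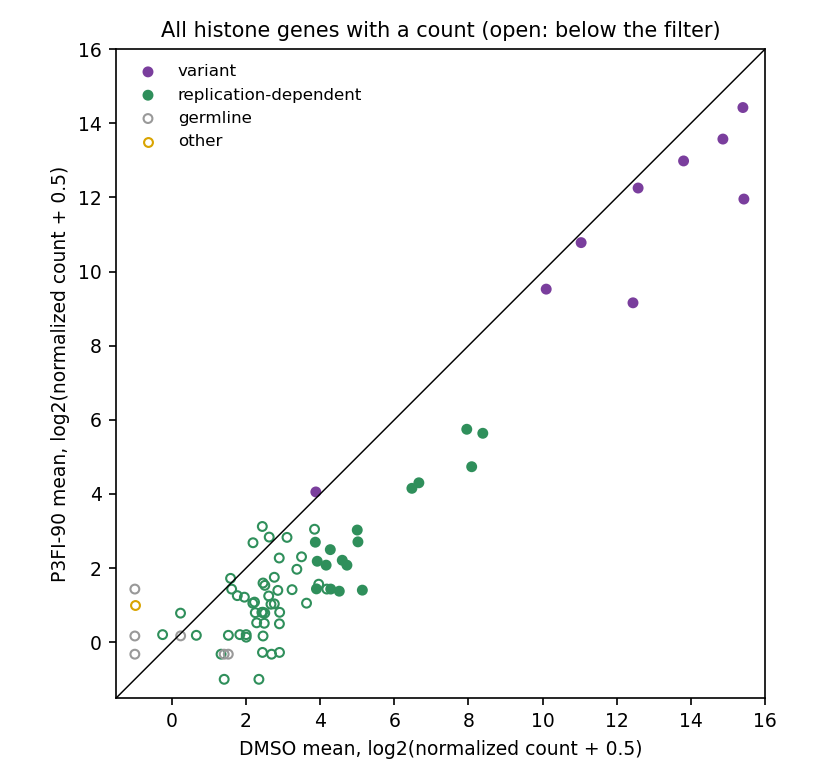
Mean level of each histone gene with a count in the P3FI-90 libraries (vertical axis) against the DMSO libraries (horizontal axis), both as log2(normalized count + 0.5), with filled points for genes that passed the filter, open points for genes below it, and a line of equal levels. The variants at the upper right lie well above the replication-dependent genes in level, and H1f0 and H2ax lie farthest below the line among them.

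The linker histone variant H1f0 had the largest difference among the variants. H1f0 encodes H1.0, the linker histone that accumulates in resting and differentiated cells. Its normalized counts were 44825, 43436 and 44467 in the DMSO libraries and 4117, 3821 and 3994 in the P3FI-90 libraries. The groups were far apart, and replicates within a group stayed close to each other. From 44243 ± 721 to 3977 ± 149 (SD, n = 3 each), the fall was 11.1-fold, a log2 fold change of -3.48 with an SE of 0.035. None of its 50-base windows occurred in another gene, although its exons overlap those of Gm49544, and no source used here says whether strand was used in counting. H1f10, the other linker variant in the table, was listed at 0 in all 6 libraries. Its exons overlap those of Gm47286 and Gm5577, and whether the 0 means an absent message was not tested.

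H2ax followed closely. H2AX is the variant that is phosphorylated around DNA breaks. H2ax had 5904, 5165 and 5607 normalized counts with DMSO and 604.5, 578.2 and 530.0 with P3FI-90. No P3FI-90 library came near the DMSO range, and the fall was 9.73-fold, with a log2 fold change of -3.28 (SE 0.065). Its exons overlap those of Gm44335.

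Of the other H2A variants, H2az1, H2az2, H2aj and Macroh2a1 fell by less than H2ax, and Macroh2a2 did not pass the test. H2az1 encodes H2A.Z, which sits at promoters and enhancers. H2az1 had 28626, 30723 and 30276 normalized counts with DMSO and 12820, 11477 and 12356 with P3FI-90, a 2.45-fold fall (log2 fold change -1.29, SE 0.041). The groups of this gene did not overlap either. H2az2, the second H2A.Z gene, had 2096, 2159 and 2067 normalized counts and then 1723, 1888 and 1672. Its groups were separate but close, at a log2 fold change of -0.26 (SE 0.055), and this call was lost when libraries were scaled by total counts, where its log2 fold change was -0.04 and the adjusted p of edgeR's test 0.471. Within each library the raw count ratio of H2az1 to H2az2 was 13.7, 14.2 and 14.6 with DMSO and 7.44, 6.08 and 7.39 with P3FI-90, which needs no scaling between libraries. So the counts of the H2A.Z genes changed unequally, by 2.03-fold. Of the H2az1 windows 16.9% occur in another gene, and none of the H2az2 windows do.

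H2aj encodes the variant H2A.J. It had 1183, 973.1 and 1133 normalized counts with DMSO and 791.6, 739.1 and 681.8 with P3FI-90, a log2 fold change of -0.57 (SE 0.085). The groups were again separate. The ratio of H2ax to H2aj within a library went from 4.99, 5.31 and 4.95 to 0.764, 0.782 and 0.777, a 6.56-fold drop. Macroh2a1 encodes macroH2A1, a large variant with an extra macro domain that marks repressed chromatin. It had 6029, 6088 and 6233 normalized counts with DMSO and 4732, 5126 and 4812 with P3FI-90, a log2 fold change of -0.32 (SE 0.038), so its groups were separate by a small margin. Macroh2a2, its close relative, had 19.2, 7.2 and 16.3 normalized counts and then 18.7, 18.9 and 10.8. The groups of Macroh2a2 overlapped, and its log2 fold change was 0.16 with an SE of 0.51 (edgeR adjusted p = 0.778).

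H3f3a and H3f3b encode the same protein, H3.3, the H3 that is deposited outside replication. H3f3b had 43238, 43531 and 43544 normalized counts with DMSO and 22496, 21237 and 22364 with P3FI-90. H3f3a had 14077, 14835 and 14047 with DMSO and 8605, 7695 and 8045 with P3FI-90. Neither gene's groups overlapped, and the log2 fold changes were -0.98 (SE 0.029) and -0.82 (SE 0.042). Within libraries the ratio of H3f3b to H3f3a moved from 3.07, 2.93 and 3.10 to 2.61, 2.76 and 2.78, a 1.12-fold difference. The ratio of H1f0 to H3f3b fell from 1.04, 0.998 and 1.02 to 0.183, 0.180 and 0.179, so the linker gene dropped 5.64-fold against this core variant inside the same libraries. Of the H3f3a windows 12.3% occur in another gene, and its exons overlap those of H3f3aos and Gm17275.

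**Figure D2:**
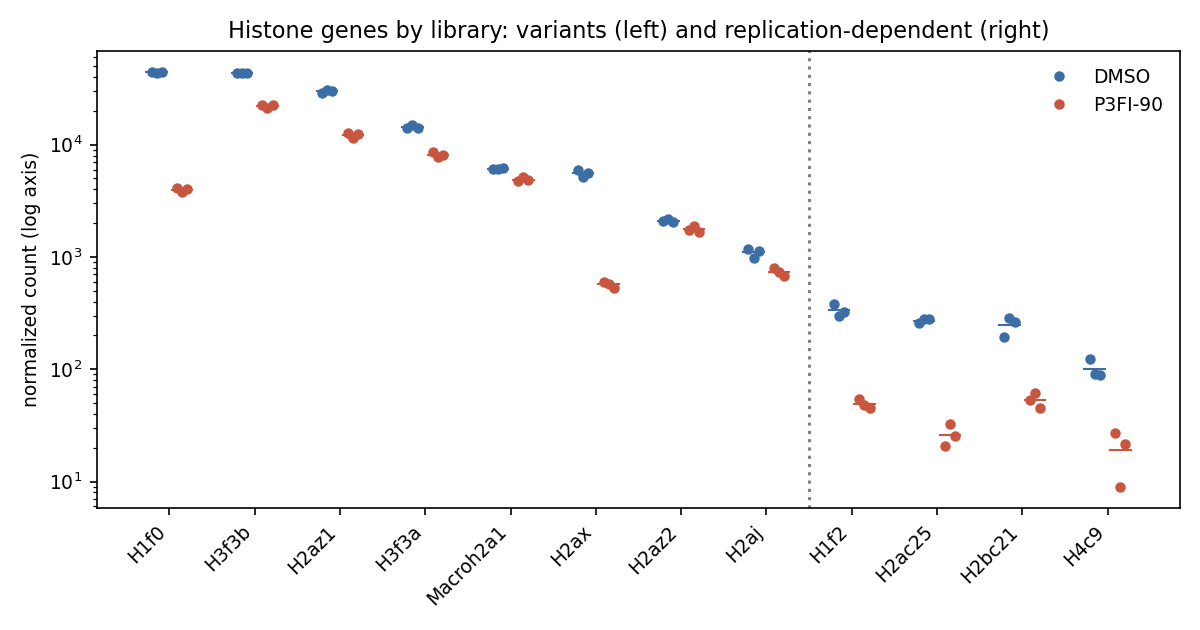
Normalized count on a log axis in each of the 3 DMSO and 3 P3FI-90 libraries for the tested histone genes with a group mean of at least 100, where points are libraries and short lines are group means. The groups do not overlap for any gene shown, beside 40.2% of all tested genes with every P3FI-90 library below every DMSO library. H4c9 passed the filter through the DMSO libraries alone, so its separate groups are no support for a fall. H1f0 drops from 44243 to 3977.

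Per kilobase of the longest annotated transcript, the order of levels changed among the variants. With DMSO, normalized counts per kilobase were 27947 for H2az1, 21529 for H1f0, 17278 for H3f3b, 5040 for H3f3a and 4016 for H2ax. With P3FI-90 they were 11429 for H2az1, 8764 for H3f3b, 2856 for H3f3a, 1936 for H1f0 and 412 for H2ax. H1f0 moved from the second place to the fourth. H2ax, above Macroh2a1 (1522), H2az2 (1290) and H2aj (599) with DMSO, was below Macroh2a1 (1217) and H2az2 (1078) with P3FI-90, and its range overlapped that of H2aj (403). On the same scale the highest replication-dependent gene, H1f2, was at 214 with DMSO and 31.6 with P3FI-90.

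The replication-dependent genes held few reads in all libraries, and those reads were fewer after P3FI-90. As CPM, the counts of a library scaled to a common total over named genes, the 65 genes summed to 41.7, 41.0 and 42.7 with DMSO and 10.3, 9.47 and 9.10 with P3FI-90. That is 41.8 ± 0.824 against 9.60 ± 0.591 CPM (SD, n = 3 each), a 4.35-fold lower share. The variants summed to 3885 ± 24.4 and 1668 ± 51.4 CPM, 2.33-fold lower. H1f0 alone went from 1171 ± 17.6 to 122 ± 4.57 CPM. The 3 genes H1f2, H2ac25 and H2bc21 carried 54.0% of the replication-dependent counts with DMSO and 41.2% with P3FI-90, so the sum follows a few genes.

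H1f2 encodes H1.2, a main linker histone of dividing cells. It had 378.5, 298.7 and 326.6 normalized counts with DMSO and 54.3, 48.6 and 45.1 with P3FI-90. No P3FI-90 library reached the lowest DMSO library, and the fall was 6.78-fold (log2 fold change -2.76, SE 0.17). H1f0 fell more than H1f2 within libraries, as their raw ratio went from 118, 145 and 136 to 75.9, 78.7 and 88.6. H1f3, another linker gene, had a log2 fold change of -2.17 (SE 0.61). H1f1 had no read in any library.

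H2ac25 encodes an H2A, H2bc21 and H2bc4 encode forms of H2B, and H4c9 encodes H4. The stem-loop pattern was not found in H2bc21 or H2bc4, although both were classed as replication-dependent. A polyadenylation signal near the end was found in H2bc21 but not in H2bc4. H2ac25 had 257.0, 279.4 and 278.6 normalized counts with DMSO and 20.6, 32.4 and 25.5 with P3FI-90, a 10.3-fold fall (log2 fold change -3.37, SE 0.21). H2bc21 had 193.3, 287.8 and 262.3 and then 53.3, 61.1 and 45.1, with a log2 fold change of -2.21 (SE 0.21). H4c9 had 123.5, 90.3 and 88.8 and then 27.1, 9.0 and 21.6, with a log2 fold change of -2.39 (SE 0.35). In each of these the groups were separate, and H4c9 varied most between its P3FI-90 libraries. H4c9 passed the filter through the DMSO libraries alone, so its separate groups are no support for a fall. H2bc4 had a log2 fold change of -2.35 (SE 0.30). H2ac25 shares 31.5% of its windows with other genes and overlaps exons of Trim17 (14 counts in all DMSO and 34 in all P3FI-90 libraries), whereas none of the H2bc21 windows were shared.

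By family, both tested H1 genes, all 3 tested H2A, all 7 tested H2B, 3 of 4 tested H3 and the 1 tested H4 gene fell, where 39.4% of all tested genes did. Apart from H1f2, H2ac25, H2bc21 and H2bc4, these genes passed the filter through the DMSO libraries alone, so the counts by family add no support either. The log2 fold changes ranged from -3.92 (SE 0.58) for H2ac8 to -1.24 for H3c10. H2bc6 was the last gene inside the call, with an edgeR adjusted p of 0.0326, and H3c10 the first outside, with 0.0632. Scaled by total counts, H2bc6 also missed it (edgeR adjusted p = 0.0539). Its log2 fold change of -1.89 ranged from -2.98 to -1.29 with a library left out, and the call was lost without DMSO replicate 1 or 3 or P3FI-90 replicate 1 or 2. H3c8, at -1.82, lost its call without DMSO replicate 3 (-1.68), P3FI-90 replicate 2 (-1.60) or P3FI-90 replicate 3 (-1.52). Summed normalized counts per family, untested members included, ran from 330.0 to 420.0 with DMSO and from 54.9 to 69.2 with P3FI-90 for the 5 H1 genes. They ran from 370.9 to 437.8 and from 54.3 to 61.7 for the 17 H2A genes, and from 461.5 to 560.0 and from 99.2 to 108.7 for the 18 H2B genes. For the 12 H3 genes the ranges were 128.5 to 144.9 and 26.4 to 54.3, and for the 13 H4 genes 140.8 to 186.2 and 44.1 to 57.1. No family overlapped between the groups, and the mean sums were between 3.13-fold lower in H4 and 6.84-fold lower in H2A. With DMSO, H2ac25 made up 271.7 of the mean H2A sum of 397.4, and H1f2 made up 334.6 of the mean H1 sum of 370.8. H4c9 made up 100.9 of the mean H4 sum of 158.0. These sums thus follow single genes, and no such sums were taken over other genes. Some untested members, H4c3, H4c4, H4c14, H2ac19, H2ac21 and H2bc27, had higher means after P3FI-90.

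A lower summed share was seen on each of the 3 chromosomes with more than 1 replication-dependent gene. On chromosome 13, 51 replication-dependent genes went from 26.0 to 5.91 CPM, a 4.40-fold lower share. On chromosome 3, 10 genes went from 8.45 to 2.80, and on chromosome 11, 3 genes went from 7.26 to 0.832. Single genes made up most of these last sums. With DMSO, H2ac25 held 254, 232 and 273 of the 254, 237 and 274 counts on chromosome 11. H2bc21 held 191, 239 and 257 of the 257, 293 and 337 on chromosome 3. H2ac19, H2ac21 and H4c14 on chromosome 3 and H2bc27 on chromosome 11 had higher means after P3FI-90. Chromosome names are those of the GENCODE annotation.

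**Figure D3:**
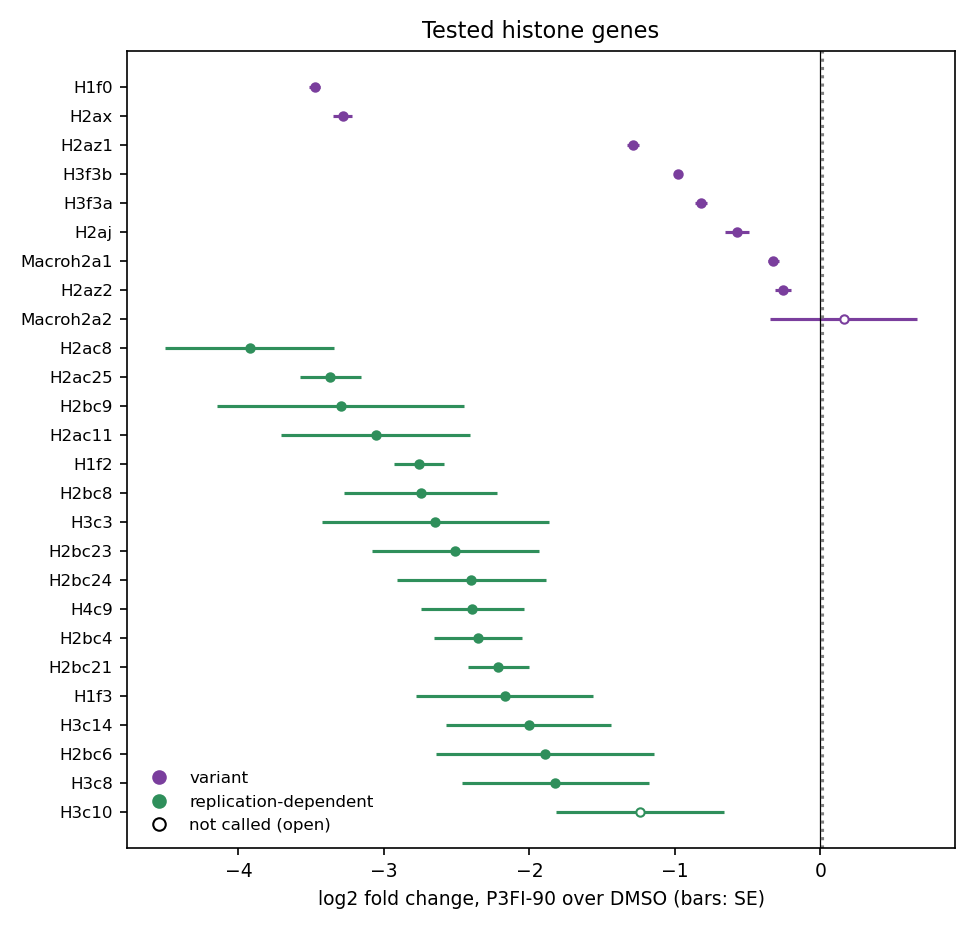
Log2 fold change of P3FI-90 over DMSO for the 26 tested histone genes, with bars for the SE, variants above and replication-dependent genes below, open points for genes not called and a dotted line at the median of all tested genes. The replication-dependent genes lie between -3.92 and -1.24, and the variants spread from -3.48 for H1f0 to 0.16 for Macroh2a2.

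Of the 65 replication-dependent genes, 48 were below the filter. Of these, 47 had at least 1 read, and 41 of the 47 had a lower mean normalized count after P3FI-90, against 31.7% of the 3365 genes of the table that had a read but stayed below the filter. Their raw counts summed to 255, 210 and 285 with DMSO and to 115, 112 and 89 with P3FI-90, and no single count was above 25. H3c6 had 13 counts with DMSO and 0 with P3FI-90, at least 4.96-fold lower against a floor of 3 counts over the group. H4c6 had 6 and 0, at least 2.29-fold lower. The sums of the groups did not overlap, but no single gene here could be tested.

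Tested and untested replication-dependent genes also differed in their annotated transcripts. These are features of the annotation, in which the shortest transcript had 411 bases among tested and 312 among untested genes. The filter used counts that were not divided by length, so it is not independent of length. The 17 tested genes had a median annotated length of 1560 bases, 9 had a polyadenylation signal near the end, and 12 held the stem-loop, with a median of 585 bases after it. The 48 untested genes had a median length of 498 bases, 7 had such a signal, and 33 held the stem-loop, with a median of 46 bases after it. Shared sequence was common in both sets, with 6 of 17 and 26 of 48 genes sharing over 50% of their windows with another gene, so reads may be split between copies. Over H1f2, H1f3 and H2bc21, which share at most 10%, the median log2 fold change was -2.21, the value of H2bc21. H1f3 passed the filter through the DMSO libraries alone, so this median is no support for a fall.

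Germline histone genes were almost silent. Of the 30, 24 had no read in any library and 6 had some, with no count above 4, and 3 of the 6 had a lower and 3 a higher mean after P3FI-90. H1f9 had 0 counts with DMSO and 7 with P3FI-90, at least 2.04-fold higher. H3f4 had 0 and 5, and all 5 were in P3FI-90 replicate 2. Floors cover counting error only, and counts of 2 outnumbered counts of 1 in all 6 libraries (311 genes against 81 in DMSO replicate 1), so the reads counted may not be independent.

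Of 22 tested genes that transcribe and process histone messages, 10 rose, 10 fell and 2 did neither, beside 39.9% of all tested genes that rose and 39.4% that fell. The median log2 fold change of the list was -0.07. NPAT and HINFP drive histone transcription, and Npat rose by 0.53 (SE 0.049) and Hinfp by 1.52 (SE 0.29) on the log2 scale. Hinfp had 944.2, 996.0 and 260.3 normalized counts with DMSO and 2016, 2226 and 2041 with P3FI-90, so DMSO replicate 3 stood apart. Without that library Hinfp rose 2.15-fold, and Casp8ap2, which encodes the histone processing factor FLASH, rose 2.29-fold. LSM10 and LSM11 belong to the U7 particle that cuts the message, and Lsm11 rose by 0.38 (SE 0.066) while Lsm10 was at -0.06 (SE 0.12) without a call. Slbp fell by 0.30 (SE 0.039), a call that was lost when libraries were scaled by total counts, at a log2 fold change of -0.08 (edgeR adjusted p = 0.0727). Zfp473, whose protein works with the U7 particle, fell by 0.94 (SE 0.20). Scaled by total counts the list had 12 higher and 7 lower genes and a median of 0.15.

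Of 34 tested histone chaperones, which escort histones to DNA, 13 rose, 18 fell and 3 did neither, beside the same 39.9% and 39.4% of all tested genes. Their median was -0.19. Scaled by total counts, 16 rose and 14 fell, so the majority turned, and the median was 0.02. Npm1, a nucleolar chaperone, fell by 1.77 (SE 0.029) on the log2 scale, and Ubn1, a subunit of the HIRA complex that deposits H3.3, rose by 2.15 (SE 0.042). Nasp, which holds the soluble H3 and H4 reserve, fell by 0.85 (SE 0.041). Chaf1a, of the complex that assembles H3 and H4 on replicated DNA, rose by 0.28 (SE 0.033). Asf1b fell by 0.24 (SE 0.037), which was lost with total counts (log2 fold change -0.02, edgeR adjusted p = 0.549). Anp32e, a chaperone that removes H2A.Z, was picked after its value was seen, and it fell by 1.54 (SE 0.040).

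Of 20 tested genes of S phase, 9 rose, 10 fell and 1 did neither, again beside 39.9% and 39.4% of all tested genes. Their median was -0.17, and with total counts 9 rose, 8 fell and the median was 0.04. Rrm2, a subunit of ribonucleotide reductase, fell by 1.96 (SE 0.037), and Cdc45, of the replicative helicase, rose by 0.71 (SE 0.038). Of 11 tested genes of growth arrest, 5 rose, 4 fell and 2 did neither, with a median of -0.04, and with total counts 6 rose, 1 fell and the median was 0.18. Gadd45a, induced by DNA damage, rose by 2.18 (SE 0.083), and Cdkn2c, an inhibitor of CDK4 and CDK6, fell by 1.42 (SE 0.045).

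**Figure D4:**
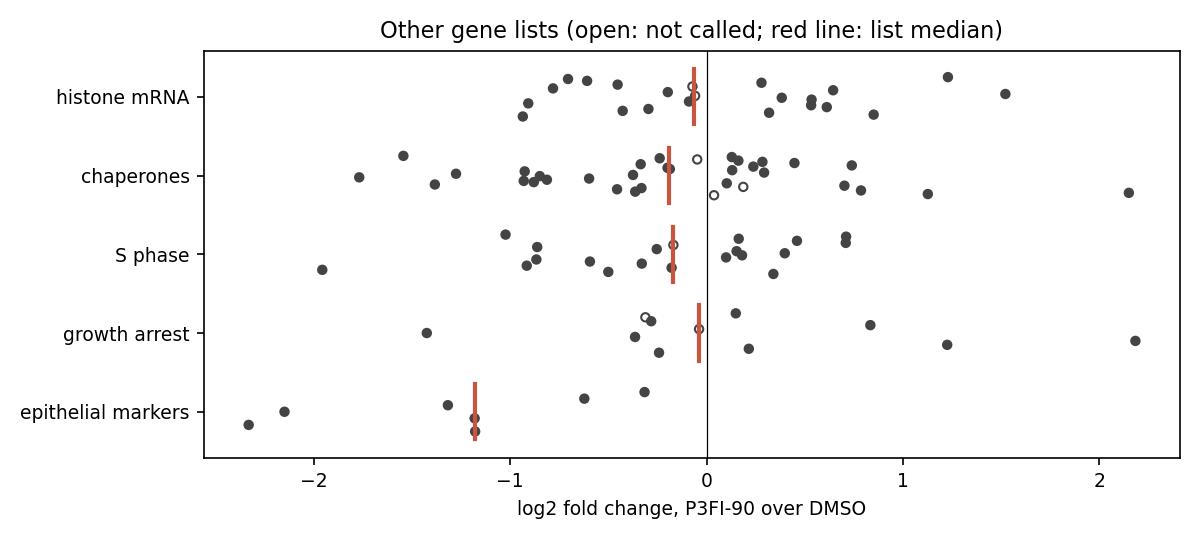
Log2 fold change of P3FI-90 over DMSO for the tested genes of 5 lists (histone message transcription and processing, histone chaperones, S phase, growth arrest and epithelial markers), where each point is a gene, open points are not called and the red line is the list median. The first 4 lists spread on both sides of 0 with medians between -0.19 and -0.04, while the epithelial markers all lie below 0.

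Markers of the labelled cell type were present, and they were lower after P3FI-90. All 7 epithelial markers were expressed and fell, where 39.4% of all tested genes fell. Their median log2 fold change was -1.18, from -2.33 for Krt7 to -0.32 for Cdh1. Their summed normalized counts went from between 146767 and 154407 to between 59187 and 62115. Of 10 markers of leukocytes, endothelium and fibroblasts, 3 were at 0 in all 6 libraries and 3 were tested. Pecam1 rose from 4.4 to 20.1 mean normalized counts, a call that was lost without DMSO replicate 1 or 2 or P3FI-90 replicate 1 or 3. Pdgfra fell from 1355 to 958, and Ptprc was at 8.8 and 13.2 without a call. The sums over the 10 were 1351 to 1398 with DMSO and 957 to 1057 with P3FI-90. The part of these markers in the histone result was not tested.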

How the data were processed

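RNA-seq libraries of 4T1 cells, 3 with DMSO and 3 with P3FI-90, were analysed from the deposited table, in which the authors gave whole-number counts of reads on each gene with no normalization. The submitters' processing notes name CASAVA, HISAT2, StringTie and GRCm39. The counting tool, strandedness and versions are not given in the sources used here. Transcripts, lengths and overlaps came from GENCODE M21 (GRCm38), matched by gene identifier, so no gene coordinates of the files' build are given.

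The 296 rows without a gene name (0.483% to 0.556% of counts) were left out. The filter was filterByExpr of edgeR 4.0.16 (minimum count 10, R 4.3.3), libraries were scaled by TMM, and P3FI-90 was set against DMSO with the quasi-likelihood test of edgeR. P-values were adjusted by Benjamini-Hochberg across all 12288 tested genes. A normalized count is the count times the mean effective library size over that of its library. The common biological coefficient of variation was 0.0648. The TMM factors were 0.927 to 0.930 for DMSO and 1.08 for P3FI-90.

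Equally numbered libraries did not deviate together (correlations of deviations -0.021, 0.015 and 0.0049), so no pairing was used. Per-library values are given for tested members whose normalized counts average 100 or more in either group, and for Macroh2a2, which was added after its values were seen. Of the other lists, the largest change either way and Slbp, Npat, Lsm10, Lsm11, Nasp, Asf1b and Chaf1a are named. Casp8ap2 and Anp32e were added after their values were seen. The members, the classes and all lists were chosen with earlier results of these data known. Alternatives were other scalings, filters and tests (DESeq2 1.42.0, limma-voom of limma 3.58.1), a replicate block, each library left out, and, chosen after seeing the data, removal of a length and GC trend, members with little shared sequence, and TMM sizes for the share. The edgeR step was tested on simulated data.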

Additional observations from a re-analysis of the deposited data

How the results depend on the processing

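No setting run gave a histone gene called higher. The number called lower was 24, and was 13 when at least 10 counts were required in every library, which removes most replication-dependent genes. It was 22 with total counts and 27 without a filter, where 22 of the 24 genes were among the 27. DESeq2 called 24, the same genes, and limma-voom 25. With the replicate block it was 23, and the replication-dependent median was -2.45. Removing a length and GC trend gave 23 and a median of -2.28. Leaving out each library in turn gave 22 to 26.

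The replication-dependent median log2 fold change of -2.40 was -2.19 with total counts and -1.97 without a filter, and ranged from -2.61 (without P3FI-90 replicate 1) to -2.33 with a library left out. The variant median of -0.82 was -0.61 with total counts, and -0.86 to -0.78 with a library left out. The summed replication-dependent share after P3FI-90 was 0.230 of that with DMSO. It was 0.199 with DESeq2 size factors, 0.193 with upper quartiles, 0.198 with TMM sizes and 0.184 over genes with at least 10 counts in every library, and 0.222 to 0.236 with a library left out.

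Scaling by total counts moved the median of all genes from 0.01 to 0.23 and turned 4908 higher and 4841 lower genes into 6177 and 3641. Of the 24 genes called lower, 3 lost the call under some alternative that tested them. H2az2 lost it with total counts. H2bc6 lost it with total counts, without a filter and without any one of 4 libraries. H3c8 lost it without a filter, with the replicate block, with the length and GC trend removed and without any one of 3 libraries. H3c10 was called by limma-voom (adjusted p = 0.0497). With total counts H2aj (-0.36) and Macroh2a1 (-0.11) were smaller. Macroh2a2 changed sign, to -0.14, without DMSO replicate 2. The causes were not tested.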
